A study of Mus musculus with 18 samples.

Results

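The Z-disc is the plate at each end of a sarcomere in which the actin filaments of striated muscle are anchored. Alpha-actinin crosslinks the filaments there, and the PDZ-LIM proteins bind alpha-actinin through their PDZ domain and other partners through their LIM domains. Ldb3, also known as Cypher or ZASP, is made in long forms that end in LIM domains and in short forms that lack them, through alternative 3′ exons of its mRNA. In myotonic dystrophy type 1 (DM1), RNA with an expanded CUG repeat binds MBNL proteins, which are regulators of alternative splicing. The genes described here were 10 listed genes of this structure, Ldb3, Pdlim1, Pdlim3, Pdlim5, Pdlim7, Actn2, Actn3, Myoz1, Myot and Csrp3. They were listed by name, with earlier results of these data known. Of the 10 genes, 9 had counts among the 46725 genes of the files, in 169 of 391858 exon bins, and Pdlim7 was not analysed here.

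Gastrocnemius and quadriceps RNA came from FVB mice aged 20 weeks, 3 mice in each of 3 conditions, which gave 18 libraries. The conditions were WT mice, HSA-LR mice and HSA-LR mice given Pip6a-PMO. HSA-LR mice carry a human skeletal actin transgene with an expanded CTG repeat that is expressed in skeletal muscle, so other tissues are not modelled. Pip6a-PMO is an antisense morpholino of CAG repeats joined to the cell-penetrating peptide Pip6a, and it was injected into a vein in 160 µL per mouse. WT and HSA-LR mice have the agent label untreated, while the protocol names saline as the other injection. The mice of both HSA-LR groups carry the transgene, and the treated mice are compared below with the same HSA-LR and WT libraries that are compared with each other. Both muscles came from the same mice, so the muscles are not independent.

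Libraries held 98916844 to 143135976 counts in genes. The 6 skeletal muscle markers summed to 145816 CPM or more in every library, where CPM is a count scaled by the library's total in genes. The labels call WT mouse 2 female and the other mice male, but 4 Y-linked genes summed to 154 and 181 CPM in the 2 libraries labelled WT mouse 2 and to 1.15 and 1.43 CPM in those labelled WT mouse 3. These libraries are named by their labels, and values without them are given beside the results that turn on them. The gastrocnemius library of treated mouse 3 had the lowest ratio of 5′ to 3′ coverage, at -2.25 on the log2 scale against -1.90 to -1.72 in the other 17 libraries.

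The alternative exons on which the results turn are shown first, because their junctions define the forms compared. Sequences were read from GENCODE M21 transcripts (GRCm38), 5′ to 3′, with 15 bases on each side of the junction and the bases of the alternative exon in capitals. The bin 007 exon of Ldb3 lies at chr14:34555343-34555528 on the minus strand. It is a coding exon of 186 bases, or 62 whole codons. The skipping junction has no capitals. The short form instead enters bin 008, of 610 bases, which holds its last coding bases and 3′ UTR.
Ldb3 into bin 007: tctgcgaaggtcaagCACCCCTATTGAGCA
Ldb3 out of bin 007: CGTGGAGAATCCGAGgccacaggcctctgc
Ldb3 past bin 007: tctgcgaaggtcaaggccacaggcctctgc
Ldb3 into bin 008: tctgcgaaggtcaagGGAAAGGTTTGAAAC

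In Pdlim3, which encodes the actinin-associated LIM protein ALP, the coding exon of bin 007 lies at chr8:45908469-45908656 on the plus strand and has 188 bases. Transcript Pdlim3-203 has bins 008 and 009 in its place, of 68 and 264 bases. The alternatives differ by 144 bases, or 48 whole codons.
Pdlim3 into bin 007: gaagctgaaccacagGAATTCAAACCCATT
Pdlim3 out of bin 007: CGGATCACTGCAAAAtgaacccacagcttc
Pdlim3 into bin 008: gaagctgaaccacagGATGTGAACTACTTT
Pdlim3 out of bin 009: GACATCCTCCATGAGtgaacccacagcttc

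**Figure D1:**
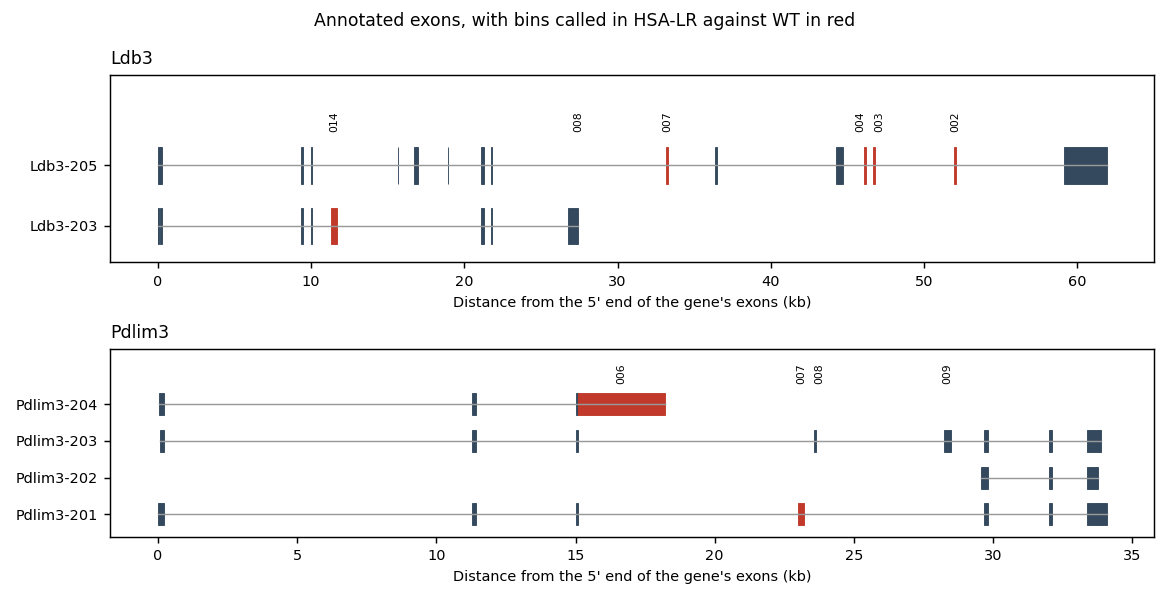
Annotated exons of Ldb3 (transcripts Ldb3-203 and Ldb3-205) and Pdlim3, as distance from the 5′ end in kb. Bins called in HSA-LR against WT mice in at least 1 muscle are red; bin 007 of Ldb3 lies in the long form and bin 008 ends the short form.

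The Ldb3 bin positions were inferred. The files held 20 bins for the gene against 32 in GENCODE M21, and of 20 sets of transcripts that gave 20 bins, Ldb3-203 with Ldb3-205 fitted the counts best (r = 0.97 across bins on the log2 scale, against 0.83 for the next set). Pdlim3 had the deposited number of bins in the annotation.

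The first question was which exons of these genes were used differently in HSA-LR muscle. The share of a bin is the percentage of the gene's summed bin counts that fall in it. In the gastrocnemius, Ldb3 bin 007 held 0.0752%, 0.0941% and 0.107% of Ldb3 counts in the 3 WT mice, and 1.53%, 1.71% and 1.46% in the HSA-LR mice. In treated mice it held 0.234%, 0.166% and 0.104%. Every HSA-LR mouse lay above every mouse of the other groups, and treated and WT mice overlapped. The mean was 0.0921% ± 0.0160 in WT, 1.57% ± 0.132 in HSA-LR and 0.168% ± 0.0653 in treated mice (SD, n = 3).

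In the quadriceps, bin 007 held 0.0545%, 0.0718% and 0.0613% of Ldb3 counts in WT, 1.57%, 1.74% and 1.33% in HSA-LR and 0.211%, 0.203% and 0.117% in treated mice. All 3 treated mice were above all 3 WT mice and below all 3 HSA-LR mice. The bins rest on 107 to 398 counts in WT libraries and on 2629 to 3439 in HSA-LR libraries.

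diffSpliceDGE of edgeR tests a bin's log2 change relative to the rest of its gene, and bins were called at an adjusted p under 0.1 over all bins. Its p-values pool the spread over all bins of a gene, and do not measure the spread between mice alone. By this test Ldb3 bin 007 rose in HSA-LR mice by 4.05 on the log2 scale in the gastrocnemius (edgeR adjusted p = 4.74e-33) and by 4.61 in the quadriceps (edgeR adjusted p = 2.38e-42). In treated against HSA-LR mice it fell by 3.22 (edgeR adjusted p = 8.92e-26) and fell by 3.11 (edgeR adjusted p = 1.8e-29). In the treated quadriceps it was above WT by 1.51 (edgeR adjusted p = 1.45e-06), and the edgeR adjusted p was 1 with 5′ to 3′ coverage as a covariate. That coverage was -1.76 to -1.72 in treated and -1.90 to -1.77 in WT quadriceps. As these do not overlap, coverage and treatment cannot be told apart in that fit. In the treated gastrocnemius the change against WT was 0.83 and missed the threshold (edgeR adjusted p = 0.109). It passed without the gastrocnemius library of treated mouse 3 (edgeR adjusted p = 0.000552) and without WT mouse 3 (edgeR adjusted p = 0.0188). Without WT mouse 2 or WT mouse 3, the change in HSA-LR mice was 4.05 and 4.20 in the gastrocnemius and 4.71 and 4.59 in the quadriceps. The smallest two-sided p of an exact permutation test with 3 mice against 3 is 0.1, and the shares of HSA-LR against WT mice reached it in both muscles.

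**Figure D2:**
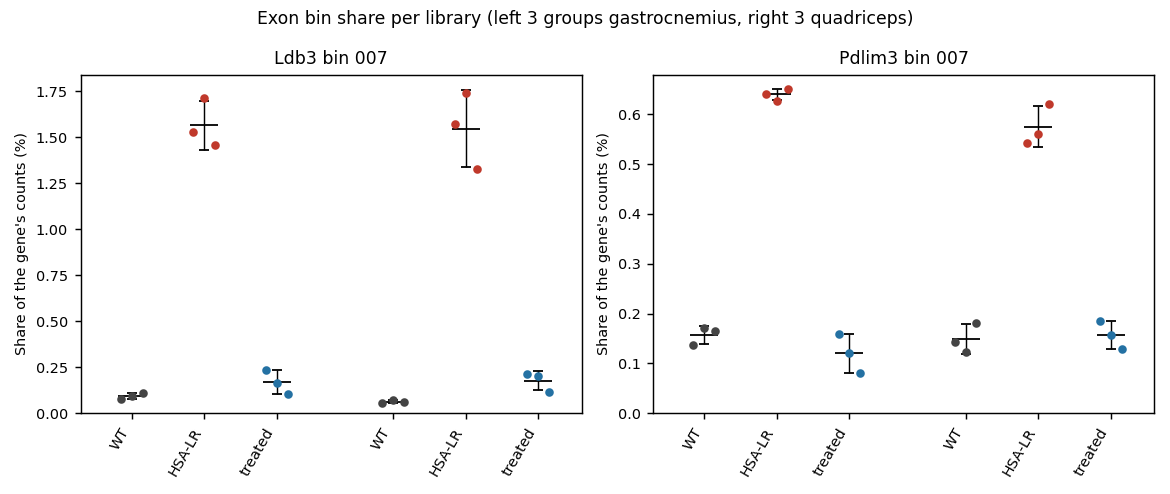
Share of the gene's counts in Ldb3 bin 007 and Pdlim3 bin 007 (percent, linear axis), with a point per mouse and bars for mean and SD. The HSA-LR points lie above all WT and treated points in both muscles; for Ldb3 they lie between 1.33% and 1.74%.

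Other exons of the long Ldb3 form also passed the test in the gastrocnemius, with smaller changes. In the gastrocnemius, bins 002, 003 and 004 rose in HSA-LR mice by 0.79, 0.80 and 0.81 relative to the rest of the gene (edgeR adjusted p = 0.0442, 0.0404 and 0.0349). They fell in treated against HSA-LR mice by 0.81, 0.79 and 0.79 (edgeR adjusted p = 0.0778, 0.0856 and 0.0887). In the quadriceps their changes in HSA-LR mice were 0.62, 0.64 and 0.67 and missed the threshold (edgeR adjusted p = 0.865, 0.701 and 0.537). All 3 calls in HSA-LR gastrocnemius were lost without any 1 HSA-LR mouse, without WT mouse 2 or without WT mouse 3 (edgeR adjusted p = 0.151 to 0.401), and that of bin 002 also without WT mouse 1 (edgeR adjusted p = 0.12). The calls in treated mice were lost without treated mouse 1 or 3, any 1 HSA-LR mouse or WT mouse 2 (edgeR adjusted p = 0.116 to 0.819).

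Since other bins of the long end changed too, bin 007 was also set against it, a measure chosen after its values were seen. Per base, bin 007 had 5.36%, 7.20% and 9.20% of the counts of bins 002 to 006 in WT gastrocnemius, 72.8%, 77.3% and 72.2% in HSA-LR and 17.2%, 11.3% and 11.2% in treated mice. In the quadriceps it was 4.23% to 5.53% in WT, 75.2% to 87.1% in HSA-LR and 8.53% to 14.5% in treated mice. The groups did not overlap in either muscle.

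Bin 008, the end of the short form, had a lower share of the gene in HSA-LR mice, though it was not called. It held 13.4% to 13.97% of Ldb3 counts in WT gastrocnemius, 9.09% to 10.1% in HSA-LR and 12.8% to 16.2% in treated mice. In the quadriceps it held 13.5% to 14.5% in WT, 10.3% to 10.9% in HSA-LR and 12.7% to 13.2% in treated mice. HSA-LR mice lay below both other groups in both muscles. This bin was described after its values were seen.

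Bin 014, a coding exon of 359 bases at chr14:34576986-34577344, held 0.111%, 0.137% and 0.119% of Ldb3 counts in WT gastrocnemius and 0.172%, 0.215% and 0.199% in HSA-LR. Treated gastrocnemius had 0.175%, 0.159% and 0.0785%, which overlapped with both. The quadriceps shares were 0.0780%, 0.142% and 0.119% in WT, 0.261%, 0.283% and 0.219% in HSA-LR and 0.145%, 0.149% and 0.110% in treated mice. HSA-LR mice lay above WT mice in both muscles. It rose in HSA-LR mice by 0.68 in the gastrocnemius (edgeR adjusted p = 0.0815) and by 1.14 in the quadriceps (edgeR adjusted p = 0.000115). The gastrocnemius call was lost without any 1 of the WT or HSA-LR mice or without treated mouse 1 (edgeR adjusted p = 0.137 to 0.747). In the quadriceps it fell in treated against HSA-LR mice by 0.90 (edgeR adjusted p = 0.0214), a call lost without treated mouse 1 or 3 or without HSA-LR mouse 1 or 2 (edgeR adjusted p = 0.201 to 0.481). Its change in treated against HSA-LR gastrocnemius was -0.49 and was not called (edgeR adjusted p = 0.972).

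**Figure D3:**
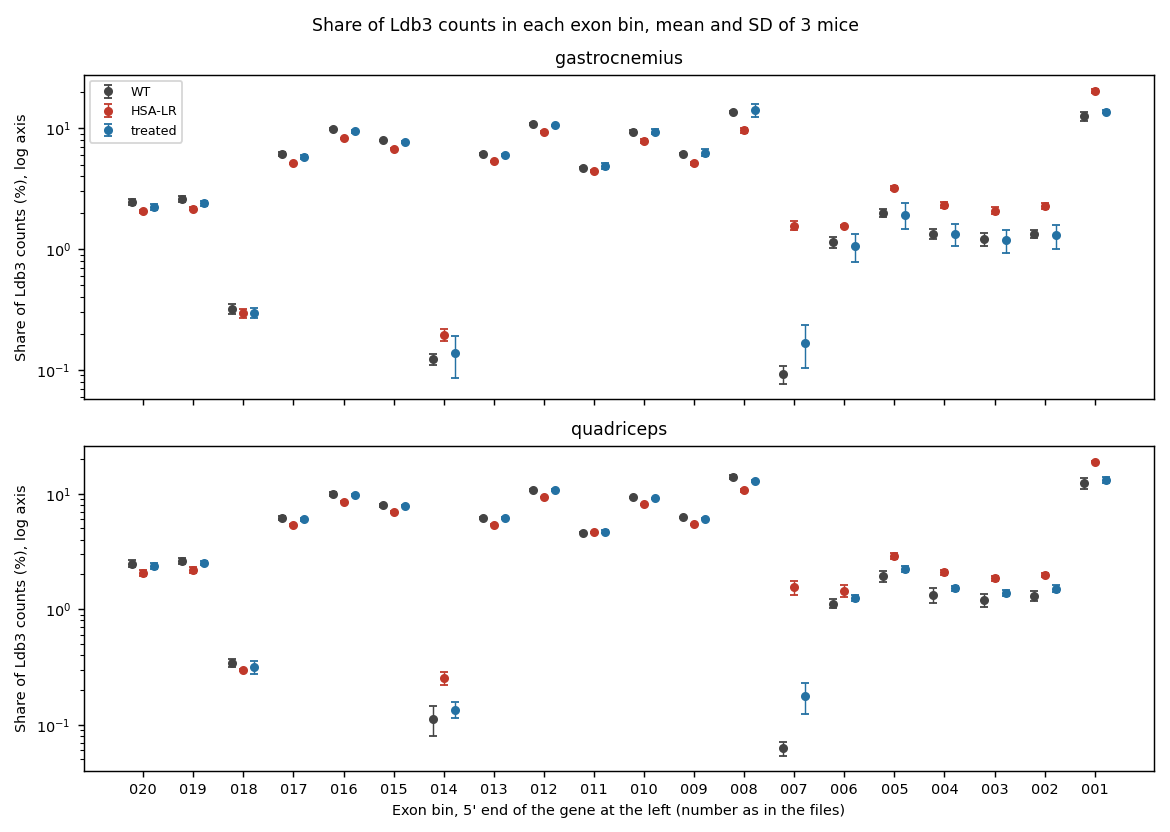
Share of Ldb3 counts in each exon bin (percent, log axis; bins in the order of the transcript, 5′ at the left), mean and SD of 3 mice per group, for the gastrocnemius and the quadriceps. Bin 007 is higher in HSA-LR mice, bins 001 to 006 are higher there too and bin 008 is lower.

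In Pdlim3, bin 007 held 0.136%, 0.170% and 0.164% of the gene's counts in WT gastrocnemius, 0.641%, 0.628% and 0.651% in HSA-LR and 0.159%, 0.121% and 0.0806% in treated mice. The quadriceps shares were 0.143%, 0.123% and 0.181%, then 0.542%, 0.561% and 0.621%, then 0.184%, 0.156% and 0.129%. HSA-LR mice did not overlap with the other groups, while treated and WT mice overlapped in both muscles. It rose in HSA-LR mice by 2.03 (edgeR adjusted p = 1.84e-10) and 1.94 (edgeR adjusted p = 6e-12) on the log2 scale. In treated against HSA-LR mice it fell by 2.50 (edgeR adjusted p = 1.73e-13) and fell by 1.90 (edgeR adjusted p = 1.7e-11).

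The exon remained a minor one. Per base, bin 007 had 1.11% to 1.44% of the counts of bins 008 and 009 in WT gastrocnemius and 5.35% to 5.65% in HSA-LR, while bins 008 and 009 held 20.5% to 21.5% and 20.3% to 20.7% of the gene. Bin 006, a noncoding bin of 3114 bases at chr8:45900560-45903673 found only in transcript Pdlim3-204, had 8 to 24 counts in WT gastrocnemius and 60 to 110 in HSA-LR. It rose by 1.61 (edgeR adjusted p = 0.0113) and, in the quadriceps, by 1.78 (edgeR adjusted p = 0.0004). Without WT mouse 3 both calls were lost (edgeR adjusted p = 0.147 and 0.176), as was the gastrocnemius call without HSA-LR mouse 3 (edgeR adjusted p = 0.391). In treated against HSA-LR gastrocnemius it fell by 2.01 (edgeR adjusted p = 0.0017), which was lost without HSA-LR mouse 3 (edgeR adjusted p = 0.133), and in the quadriceps the change was -1.20 and was not called (edgeR adjusted p = 0.139).

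In Pdlim5, which encodes the enigma homologue ENH, bins changed in the gastrocnemius and not past the threshold in the quadriceps. Bin 001, a UTR bin of 3090 bases at chr3:142239590-142242679, held 1.01%, 0.997% and 0.773% of the gene's counts in WT and 0.471%, 0.547% and 0.490% in HSA-LR gastrocnemius. It fell by 0.86 (edgeR adjusted p = 0.00153), and treated mice had 0.591%, 0.514% and 0.991%. The change of bin 001 in treated against HSA-LR gastrocnemius was 0.41 and was not called. Bin 030, a coding bin of 92 bases at chr3:142312123-142312214, held 0.0960%, 0.0755% and 0.0844% in WT, 0.140%, 0.178% and 0.167% in HSA-LR and 0.0634%, 0.105% and 0.0501% in treated gastrocnemius. It rose by 0.92 in HSA-LR mice (edgeR adjusted p = 0.0146) and fell by 1.07 in treated against HSA-LR mice (edgeR adjusted p = 0.00365). The rise was not called without HSA-LR mouse 2, HSA-LR mouse 3 or WT mouse 2 (edgeR adjusted p = 0.228, 0.146 and 0.175), and the fall was not called without treated mouse 1 or HSA-LR mouse 2 (edgeR adjusted p = 0.392 and 0.118). The test of the difference between muscles did not pass for either bin (unadjusted p = 0.145 and 0.618 by edgeR). In the quadriceps, bin 030 held 0.0764% to 0.112% in WT, 0.126% to 0.178% in HSA-LR and 0.0722% to 0.0919% in treated mice. HSA-LR mice thus lay above both other groups there too, while the groups overlapped for bin 001.

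Of 152 bins of these genes tested, 9 were called in HSA-LR against WT gastrocnemius, against 0.819% of all bins, with 8 higher, against 0.591%, and 1 lower, against 0.228%. In the quadriceps 4 were called, against 0.284%, all higher, against 0.165% higher and 0.119% lower of all bins. Treated against HSA-LR gastrocnemius gave 7 calls, against 0.309%, all lower, against 0.195% lower and 0.113% higher of all bins. In the quadriceps 3 were called, against 0.168%, all lower, against 0.0897% lower and 0.0787% higher of all bins. In treated against WT mice 0 were called in the gastrocnemius by edgeR or by limma voom with diffSplice, against 0.0654%, with 5 at an unadjusted p under 0.05. In the quadriceps 1 was called, bin 007 of Ldb3, against 0.0353%. The called bins belonged to Ldb3, Pdlim3 and Pdlim5. As the genes were listed with earlier results of these data known, these counts are a description and not a test of the set. None of the tested bins of Pdlim1, Actn2, Actn3, Myoz1, Myot or Csrp3 was called in HSA-LR against WT mice in either muscle. Between the muscles, 0 bins of these genes were called for the change in HSA-LR mice, against 0.0166% of all bins, and 0 had an unadjusted p under 0.05 by edgeR. For WT quadriceps against WT gastrocnemius edgeR called 0, against 0.0432%, with 2 at an unadjusted p under 0.05. With the mouse as a block 0 were called in both. For the change in HSA-LR mice, Ldb3 bins 007 and 014 then had an unadjusted p of 0.0252 and 0.0212 by edgeR. Between WT muscles Ldb3 bin 007 then had an unadjusted p of 0.00194 by edgeR.

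The second question was whether the levels of the genes differed. In bulk muscle, fewer cells of a type and less RNA per cell cannot be told apart. Pdlim3 was at 658, 549 and 839 CPM in WT gastrocnemius, 1266, 1075 and 1294 in HSA-LR and 573, 614 and 793 in treated mice. In the quadriceps it was at 509, 551 and 602, then 1171, 1052 and 1217, then 569, 543 and 637 CPM. HSA-LR mice were above both other groups in both muscles, and treated mice overlapped with WT mice. Some sums of markers of other cells and fibres moved with Pdlim3, though not every marker in them did. The 2 immature fibre markers summed to 7.92 to 15.7 CPM in WT, 15.3 to 21.7 in HSA-LR and 12.7 to 14.5 in treated gastrocnemius, and to 7.64 to 9.91, 19.0 to 21.7 and 11.3 to 16.1 CPM in the quadriceps. Of these, Myh8 had means of 6.92, 14.5 and 7.61 CPM in the gastrocnemius and 6.14, 15.4 and 9.04 in the quadriceps. Myh3 had means of 4.46, 4.37 and 5.87 CPM in the gastrocnemius and 2.27, 4.68 and 5.11 in the quadriceps, and did not follow Pdlim3. The 3 macrophage markers summed to 22.9 to 27.1, 32.3 to 35.5 and 14.5 to 19.6 CPM in the gastrocnemius, and to 12.9 to 22.3, 37.4 to 44.5 and 13.8 to 19.7 CPM in the quadriceps. In the gastrocnemius, means in WT and HSA-LR mice were 17.3 and 26.2 CPM for Csf1r, 2.01 and 2.38 for Adgre1, and 5.82 and 5.69 for Cd68. Myh1, the myosin of type IIX fibres, had means of 4331 CPM in WT, 17741 in HSA-LR and 3069 in treated gastrocnemius, and of 4749, 9722 and 5839 CPM in the quadriceps. Myh1 is 1 of the 6 skeletal muscle markers, and most of the others went the other way. Myh4 had means of 49240, 38809 and 58935 CPM in the gastrocnemius and 51964, 47976 and 56548 in the quadriceps. Tnnt3, Tnni2 and Ckm also had lower means in HSA-LR than in WT and treated mice in both muscles, and Acta1 had higher ones. The part of these markers in the Pdlim3 result was not tested.

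Pdlim3 rose in HSA-LR mice by 0.75 on the log2 scale in the gastrocnemius (SE 0.194, edgeR adjusted p = 0.0388) and by 0.94 in the quadriceps (edgeR adjusted p = 0.00247). In treated against HSA-LR mice it fell by 0.70 (edgeR adjusted p = 0.0702) and fell by 0.82 (edgeR adjusted p = 0.0099). The quadriceps calls held without any 1 mouse. The gastrocnemius call in HSA-LR mice was lost without HSA-LR mouse 1, HSA-LR mouse 3, WT mouse 1 or WT mouse 2 (edgeR adjusted p = 0.12, 0.132, 0.103 and 0.128). That in treated mice was lost without treated mouse 1 or 2 or any 1 HSA-LR mouse (edgeR adjusted p = 0.134 to 0.199).

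Pdlim1, which encodes the PDZ-LIM protein CLP36, was at 49.0, 38.1 and 71.4 CPM in WT quadriceps, 34.2, 25.4 and 19.3 in HSA-LR and 48.4, 70.9 and 30.8 in treated mice. HSA-LR mice were below WT mice, and treated mice overlapped with both. It fell in HSA-LR quadriceps by 1.13 on the log2 scale (edgeR adjusted p = 0.0415) and rose in treated against HSA-LR mice by 1.08 (edgeR adjusted p = 0.069). The fall was not called without HSA-LR mouse 2, HSA-LR mouse 3 or WT mouse 3 (edgeR adjusted p = 0.122, 0.114 and 0.125). The rise was not called without treated mouse 1 or 2 or any 1 HSA-LR mouse (edgeR adjusted p = 0.104 to 0.194), nor with the replicate number as a block (edgeR adjusted p = 0.118). In the gastrocnemius it was at 57.2, 79.2 and 141 CPM in WT, 70.3, 47.4 and 67.4 in HSA-LR and 143, 62.9 and 45.7 in treated mice, and these overlapped.

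All 6 slow fibre markers had counts, and in the quadriceps each had a lower mean in HSA-LR than in WT and treated mice. Pdlim1 had this order of means too. The markers summed to 97.4 to 410 CPM in WT quadriceps, 18.2 to 103 in HSA-LR and 35.0 to 1580 in treated mice, and these ranges overlapped. Myl3 in HSA-LR mouse 1, at 32.2 CPM, lay above WT mouse 1 and WT mouse 2. The summed markers had a higher mean in treated than in WT quadriceps, while Pdlim1 did not. The part of these markers in the Pdlim1 result was not tested.

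Ldb3 was at 1734, 1767 and 2597 CPM in WT gastrocnemius, 1647, 1510 and 1635 in HSA-LR and 1920, 2106 and 1653 in treated mice. Quadriceps levels were 1723, 1793 and 2432, then 1688, 1597 and 1840, then 2184, 2345 and 2045 CPM. The change in HSA-LR gastrocnemius was -0.42, which missed the threshold in edgeR (adjusted p = 0.133) and passed in DESeq2 (adjusted p = 0.067). In treated against HSA-LR gastrocnemius it was 0.41, which missed in edgeR (adjusted p = 0.173) but passed without WT mouse 3 (edgeR adjusted p = 0.0564) and in DESeq2 (adjusted p = 0.0822). In HSA-LR quadriceps it was -0.33 (edgeR adjusted p = 0.179), and edgeR called it without HSA-LR mouse 3 (adjusted p = 0.098). Without WT mouse 3 the changes in HSA-LR mice were -0.22 in the gastrocnemius and -0.16 in the quadriceps (edgeR adjusted p = 0.308 and 0.476). In treated against HSA-LR quadriceps Ldb3 rose by 0.51 (edgeR adjusted p = 0.069), and the call was lost without any 1 treated mouse or without HSA-LR mouse 1 or 2 (edgeR adjusted p = 0.116 to 0.195). The gene sum mixes its 2 ends. Bins 002 to 006 were at 125 to 164 CPM in WT and 179 to 187 in HSA-LR gastrocnemius, and bin 008 at 233 to 363 and 137 to 165 CPM. With the largest bin in place of the sum, the gastrocnemius change in HSA-LR mice was 0.33.

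The alpha-actinins were not called by edgeR in any comparison of all libraries. Actn3, the alpha-actinin of fast fibres, was at 9179 to 12455 CPM in WT gastrocnemius, 8937 to 10516 in HSA-LR and 9419 to 13570 in treated mice. Actn2, which slow and fast fibres both express, was at 777, 1511 and 2541 CPM in WT, 2679, 1837 and 2701 in HSA-LR and 2625, 1522 and 991 in treated gastrocnemius. In the quadriceps Actn2 was at 786 to 1496, 1688 to 2229 and 847 to 2517 CPM. HSA-LR quadriceps lay above WT quadriceps in all 3 mice, and the edgeR test did not pass (edgeR adjusted p = 0.196), while DESeq2 called Actn2 there at 0.77 on the log2 scale (adjusted p = 0.096). Without treated mouse 3, which enters the shared fit, edgeR called it too (adjusted p = 0.0932). Without WT mouse 3 the edgeR change was 1.10 (adjusted p = 0.108) and without WT mouse 2 it was 0.61 (edgeR adjusted p = 0.395). DESeq2 was not run without single mice. The slow fibre markers had a mean of 202 CPM in WT and 50.8 in HSA-LR quadriceps, with overlapping ranges of 97.4 to 410 and 18.2 to 103 CPM. The Myh1 ranges were 3910 to 5925 and 5784 to 14032 CPM and overlapped too. The part of either in the Actn2 levels was not tested.

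Myoz1, a calsarcin that ties calcineurin to alpha-actinin, was at 2056, 1914 and 1626 CPM in WT, 2209, 2422 and 2332 in HSA-LR and 2157, 2518 and 3018 in treated gastrocnemius. Every HSA-LR and treated mouse was above every WT mouse, but Myoz1 was not called in HSA-LR against WT gastrocnemius (edgeR adjusted p = 0.422). Its change in treated against WT mice was 0.55 on the log2 scale, at an unadjusted p of 0.00822 by edgeR, and it missed the threshold (edgeR adjusted p = 0.255) but passed in DESeq2 (adjusted p = 0.0477). By edgeR it was 0.57 without WT mouse 2 and 0.46 without WT mouse 3 (adjusted p = 0.497 and 0.398). Myot, which encodes myotilin, was at 838 to 1191, 1053 to 1351 and 805 to 1213 CPM in the 3 gastrocnemius groups, which overlapped. Pdlim5 was at 610 to 845, 746 to 903 and 456 to 756 CPM and also overlapped.

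Csrp3, the muscle LIM protein, varied widely between mice. It was at 69.1, 95.4 and 806 CPM in WT gastrocnemius, 246, 86.2 and 276 in HSA-LR and 135, 68.8 and 88.3 in treated mice. Quadriceps levels were 39.6, 26.8 and 155, then 51.9, 65.0 and 92.1, then 80.0, 158 and 26.3 CPM. WT mouse 3 was the highest WT mouse in both muscles. In WT mice the quadriceps was lower than the gastrocnemius by a fitted log2 difference of -2.11, at an unadjusted p of 0.0294 by edgeR, which did not pass (edgeR adjusted p = 0.478). Without WT mouse 3 the difference was -1.29, at an unadjusted p of 0.0655 by edgeR (adjusted p = 0.656). The slow fibre markers summed to 2117 to 4487 CPM in WT gastrocnemius, against 97.4 to 410 CPM in WT quadriceps, and their part in this difference was not tested.

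**Figure D4:**
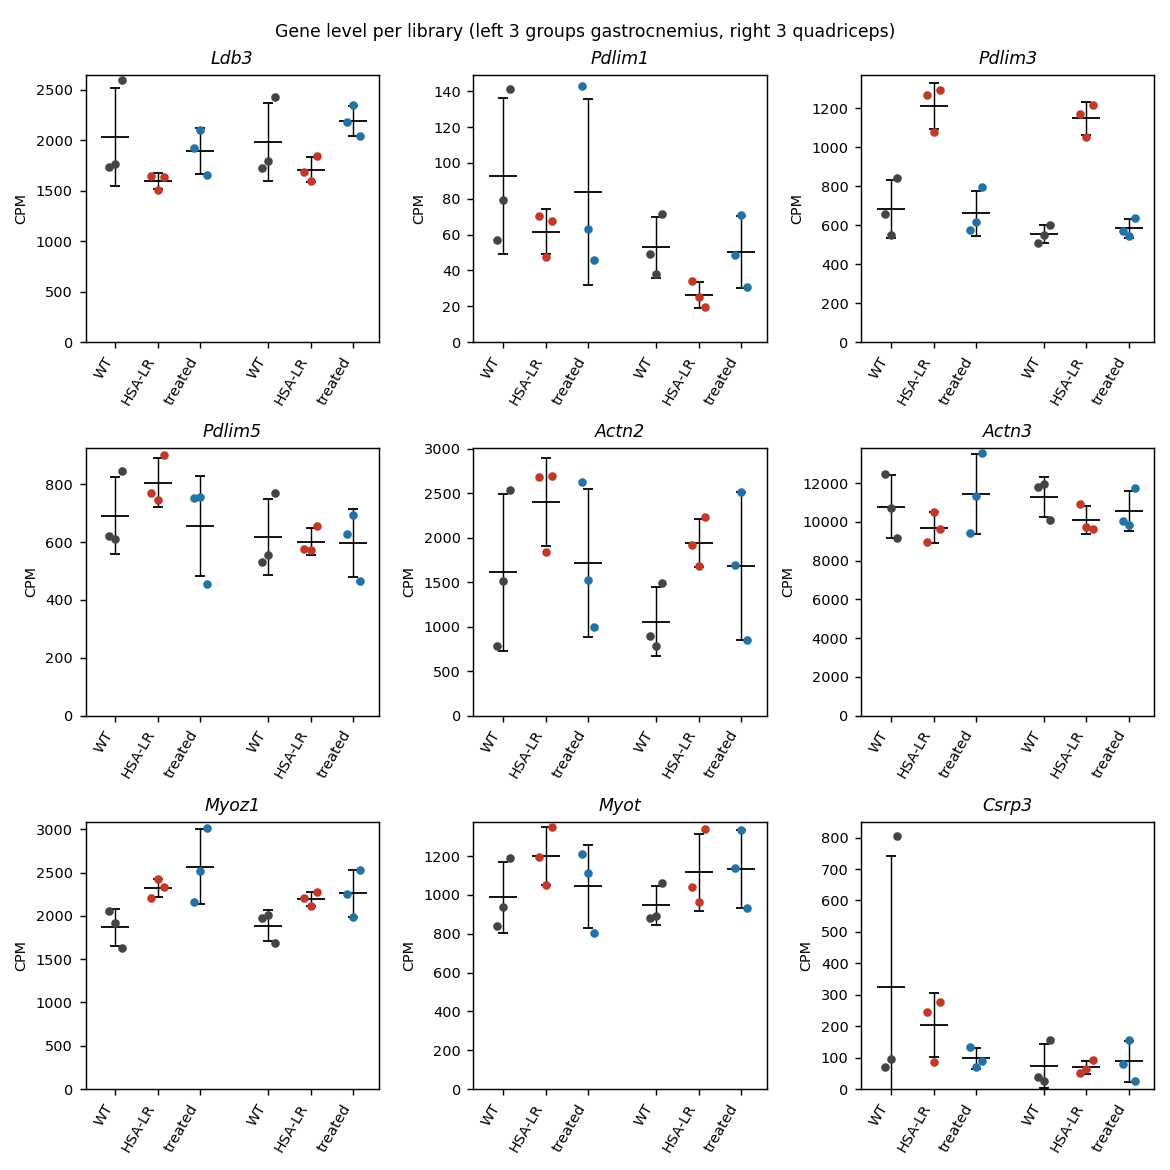
Level of each gene per library (CPM, linear axes from 0), with a point per mouse and bars for mean and SD, gastrocnemius at the left and quadriceps at the right of each panel; bars that reach below 0 are cut there. Pdlim3 is higher in all HSA-LR mice, and Csrp3 has 1 WT gastrocnemius library at 806 CPM.

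Of the 9 genes tested, 1 was called in HSA-LR against WT gastrocnemius, against 15.5% of all genes, and 2 in the quadriceps, against 20.3%. Treated against HSA-LR mice gave 1 and 3 calls, against 10% and 13.8%. In treated against WT mice edgeR called 0 in both muscles, against 1.04% and 1.41%. At an unadjusted p under 0.05 there were 1 in the gastrocnemius and 0 in the quadriceps, limma voom called 0 in both, and DESeq2 called 1 and 0. The median log2 change of the 9 genes in HSA-LR mice was 0.15 in the gastrocnemius and -0.15 in the quadriceps, against -0.01 and 0.01 over all genes. No gene was called for a difference between the muscles in the change of HSA-LR mice, against 0% of all genes, with 0 of the 9 at an unadjusted p under 0.05. For WT quadriceps against WT gastrocnemius 0 were called, against 0.297%, with 1 at an unadjusted p under 0.05. With the mouse as a block 0 genes were called in either comparison. The unadjusted p by edgeR was then 0.0102 for the muscle difference of the Pdlim5 change (adjusted p = 0.37). Between WT muscles it was 0.00879 for Csrp3, 0.0205 for Pdlim1 and 0.0369 for Pdlim3 (edgeR adjusted p = 0.192, 0.275 and 0.347).

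Per kilobase of exon, the order of mean levels in WT gastrocnemius was Actn3 at 3718 ± 565 CPM per kb, Myoz1 at 986 ± 116, Myot at 447 ± 82.5, Actn2 at 424 ± 234, Ldb3 at 333 ± 80.0, Pdlim3 at 133 ± 28.5, Csrp3 at 121 ± 156, Pdlim5 at 77.9 ± 14.9 and Pdlim1 at 17.6 ± 8.28 (SD, n = 3). The ranges of mean and SD overlapped for Myot, Actn2 and Ldb3. That of Csrp3 overlapped with those of Actn2, Ldb3, Pdlim3, Pdlim5 and Pdlim1. The genes share libraries, and differences between genes were not tested. In WT quadriceps Ldb3, at 325 ± 64.1, stood before Actn2, at 279 ± 101, and Csrp3, at 27.6 ± 26.4, after Pdlim5, at 69.7 ± 14.8 CPM per kb. The length of Actn3 came from an annotation with 23 bins where the files held 22. The lengths include noncoding bins, so the order depends on them. Bin 006 of Pdlim3 made up 3114 of its 5147 bases, with 8 to 24 counts in WT gastrocnemius. Noncoding bin 006 of Csrp3 made up 1595 of 2671 bases, and noncoding bin 010 of Pdlim1 2327 of 5260. Levels without these bins were not computed.

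The correction index is 100% when the log2 change of treated against WT mice is 0 and 0% when it equals that of HSA-LR against WT mice. For Ldb3 bin 007 it was 79.5% in the gastrocnemius and 67.3% in the quadriceps. For Pdlim3 bin 007 it was 123% and 97.8%, where a value over 100% means that the fitted treated level lay beyond the WT level. For the Pdlim3 gene it was 93.4% and 87.5%, and for Pdlim1 in the quadriceps 95.6%. It was 48.0% for Pdlim5 bin 001 and 116% for Pdlim5 bin 030 in the gastrocnemius. For Ldb3 bin 014 it was 72.8% and 78.4%, and for Pdlim3 bin 006 it was 125% and 67.4%. Ldb3 bins 002 to 004 had 97.8% to 102% in the gastrocnemius. In every bin with a value over 100%, the shares of treated and WT mice overlapped and their difference was not called. On a linear scale of shares the Ldb3 bin reached 94.8% and 92.3%.

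Among 43 other listed Z-disc genes, 41 were tested. In HSA-LR against WT mice 4 rose and 2 fell in the gastrocnemius, where 8.6% of all genes rose and 6.94% fell. In the quadriceps 10 rose and 4 fell, where 11% of all genes rose and 9.31% fell. Of these genes, 3 rose and 5 fell in treated against HSA-LR gastrocnemius, against 4.49% and 5.53% of all genes, and in the quadriceps 4 rose and 7 fell, against 6.54% and 7.22%. Hspb8, a small heat shock protein that acts with Bag3 in chaperone-assisted autophagy, was the only one called in HSA-LR against WT mice in both muscles with a change of at least 1.5-fold. It was at 321, 296 and 347 CPM in WT, 565, 457 and 512 in HSA-LR and 355, 346 and 359 in treated gastrocnemius. It rose in HSA-LR mice by 0.60 (edgeR adjusted p = 0.00907) and 0.71 (edgeR adjusted p = 0.00478) on the log2 scale.

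The genes whose log2 CPM followed Pdlim3 most closely over the 18 libraries were Cep19 (r = 0.94), Vwa3b (r = 0.93) and Klhl41 (r = 0.92). For Pdlim1 they were Casq2 (r = 0.95), Bcam (r = 0.95) and Myh7b (r = 0.94). These values describe 18 libraries from 9 mice that share groups, and were not tested.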

How the data were processed

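The authors deposited unnormalized counts for each exon bin in each library (DEXSeq format), from stranded polyA libraries on GRCm38. The submitters' processing notes name CASAVA, HISAT and featureCounts 1.5.0 without their roles, and the annotation release is not given in the sources used here. Reads that cover more than 1 bin are counted in each of them, and a gene's level here is the sum of its bins. Entries outside genes (2.82% to 4.14% of a library) were left out. Bins were placed on GENCODE M21. Bin positions of Ldb3 and Actn2 were inferred from the counts, and Actn3 bins have no positions here.

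Features passed filterByExpr (minimum count 10 and minimum total 15) and were scaled by TMM. They were tested in 1 fit of 9 libraries per muscle with glmQLFTest and diffSpliceDGE of edgeR 4.0.16 (R 4.3.3), with Benjamini-Hochberg adjustment over all genes or bins and calls at an adjusted p under 0.1. Muscles were compared in a fit of 18 libraries. limma 3.58.1 and DESeq2 1.42.0 were alternatives. For shares, exact permutation tests (two-sided) were used. The gene and bin tests were first tried on data simulated from the 9 gastrocnemius libraries. The fit of 18 libraries and the fits with a block or a covariate were not. With 3 mice a group, gene p-values rest on the spread between mice within all groups of the fit. edgeR draws that spread toward a trend over all genes, so they do not measure the spread of the groups compared alone. Reads carry no molecular identifiers. The bin tests pool the spread over the bins of a gene, which share reads. Bin p-values are therefore not a measure of the spread between mice alone. The text names all listed genes, up to 6 called bins of each, the 3 genes most like each gene called in HSA-LR mice, and other Z-disc genes called at least 1.5-fold in HSA-LR against WT mice in both muscles. The members and lists were chosen with earlier results of these data known. The muscles of a mouse varied together (median r = 0.21 over 9 pairs).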

Additional observations from a re-analysis of the deposited data

How the results depend on the processing

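The Ldb3 bin 007 and Pdlim3 bin 007 calls in HSA-LR against WT and in treated against HSA-LR mice kept their direction and passed the threshold under every alternative run, in both muscles. The smaller calls depended on single mice. With 1 mouse left out, genes called in HSA-LR against WT mice were 0 to 1 in the gastrocnemius and 1 to 3 in the quadriceps, and in treated against HSA-LR mice 0 to 2 and 1 to 3. Bins called were 3 to 12 in HSA-LR against WT, 3 to 8 in treated against HSA-LR and 0 to 2 in treated against WT gastrocnemius, and 3 to 4 and 2 to 4 in the first 2 of these in the quadriceps. DESeq2 called 2 genes in HSA-LR against WT and 2 in treated against HSA-LR gastrocnemius (Pdlim3 and Ldb3), and 1 in treated against WT gastrocnemius (Myoz1), and fitting only the 2 groups compared gave 2 genes in treated against HSA-LR gastrocnemius. limma voom with diffSplice called 5 bins in HSA-LR against WT and 4 in treated against HSA-LR gastrocnemius. Same-numbered mice of different groups did not vary together (median r = 0.0013 over 18 pairs). The fit with the replicate number as a block called 5 and 4 bins in these comparisons, and lost the Pdlim1 rise in treated quadriceps, the Ldb3 bins 002 to 004 in both and Ldb3 bin 014 in HSA-LR gastrocnemius. With 5′ to 3′ coverage as a covariate, 4 bins were called in treated against HSA-LR and 2 in treated against WT gastrocnemius, and 0 in treated against WT quadriceps. The coverage of treated and WT quadriceps did not overlap, so coverage and treatment cannot be told apart there. A minimum count of 50 gave 1 bin in treated against WT gastrocnemius. The largest bin of the gene turned the Ldb3 change in the gastrocnemius to 0.33 in HSA-LR against WT and to -0.23 in treated against HSA-LR mice, since that bin lies in the long end.

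As a share of the largest bin, the difference of HSA-LR and WT mice was 6.92 and 7.65 percentage points for Ldb3 bin 007 and 2.53 and 2.18 for Pdlim3 bin 007. Per base against the other bins named above, chosen after seeing the data, it was 66.9 and 76.8 for Ldb3 and 4.19 and 3.75 for Pdlim3. The linear correction index of Ldb3 bin 007 was 94.8% and 92.3%. The mouse as a block in the 18-library fit left 0 members called. Depth limits bins with few counts, such as Pdlim3 bin 006 with 6 to 24 counts in WT libraries.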
